A study of Mus musculus with 16 samples.

Results

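Metallothioneins and the proteins that carry zinc across membranes were followed through 9 genes, chosen by their symbol in the gene table: the metallothioneins Mt1 and Mt2, the zinc-sensing transcription factor Mtf1, the importers Slc39a14, Slc39a1 and Slc39a10, and the exporters Slc30a1, Slc30a4 and Slc30a5. All 9 were among the 21923 genes of the table, and all 9 passed the filter on low counts in every comparison. RNA was sequenced from the gastrocnemius, a calf muscle, of 16 mice in 4 groups of 4. NOR mice carried no tumor and received PBS. CAC (cancer cachexia) mice were inoculated with tumor cells under the skin on day 0 and received PBS daily from day 9. AM mice carried the same tumors and received amiloride daily from day 9 at 2 mg/kg. KD mice carried tumor cells in which Rab27a and Rab27b, genes of vesicle release, had been knocked down with shRNA, and received PBS. Muscle was taken on day 30. Replicates 1 and 2 of each group were C57BL/6 mice and replicates 3 and 4 BALB/c mice. Outside NOR, the C57BL/6 mice carried Lewis lung carcinoma (LLC) and the BALB/c mice the colon carcinoma CT26, so strain and tumor line cannot be told apart. The labels give BALB/c mice of both sexes while the methods give males, and the sex of each mouse was not used here. The knock-down was made in the tumor cells and not in the mouse, so Rab27 reads in muscle do not check it.

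Metallothioneins are small cysteine-rich proteins that bind zinc and copper and keep the free ions low. Zinc enters the cytosol through ZIP (Slc39a) importers and leaves it, into organelles or out of the cell, through ZnT (Slc30a) transporters. When free zinc rises, MTF1 binds metal response elements (MRE) in the promoters of Mt1, Mt2 and Slc30a1. Metallothionein genes and Slc39a14 (ZIP14) are also known as targets of glucocorticoids or of interleukin-6 during inflammation.

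The coding sequences of Mt1 and Mt2 are shown because these paralogs carry the largest values and because their reads have to be told apart. Cysteine codons, the metal-binding residues, are in capitals.

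Mt1: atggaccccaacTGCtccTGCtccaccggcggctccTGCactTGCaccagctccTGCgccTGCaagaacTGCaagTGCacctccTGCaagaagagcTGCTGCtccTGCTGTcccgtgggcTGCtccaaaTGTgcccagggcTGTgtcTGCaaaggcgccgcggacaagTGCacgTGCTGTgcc
Mt2: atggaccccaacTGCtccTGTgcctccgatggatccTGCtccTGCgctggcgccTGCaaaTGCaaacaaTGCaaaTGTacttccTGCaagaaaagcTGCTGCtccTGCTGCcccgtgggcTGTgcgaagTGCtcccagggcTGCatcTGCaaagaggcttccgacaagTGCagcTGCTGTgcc

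Both sequences, from GENCODE M21 transcripts (GRCm38), were 183 bases or 61 codons long, and 20 of the codons (32.8%) encoded cysteine, at the same 20 places. They were identical at 145 of 183 bases (79.2%), with a longest shared run of 20 bases. Mt1 (ENSMUSG00000031765) lies on the plus strand at chr8:94179082-94180327 and Mt2 (ENSMUSG00000031762) on the plus strand at chr8:94172664-94173568, 5514 bases apart. Mt1 exons shared no 31-base stretch with any other annotated gene and overlapped none. In contrast, 73.5% of the Mt2 exon bases lie opposite the exons of Gm45774, an antisense gene, and the sources used here do not say whether reads were counted by strand, so reads of Mt2 and of Gm45774 cannot be told apart. Gm45774 has no row of its own in the table.

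Promoters of Mt1, Mt2 and Slc30a1, known targets of MTF1, are printed to show the metal response elements beside the measured changes. They are the 250 bases before the RefSeq start (GRCm38.p6), read on the gene's own strand, and capitals mark the MRE core, TGCACNC or TGCGCNC on either strand.

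Mt1 (chr8:94178839-94179088): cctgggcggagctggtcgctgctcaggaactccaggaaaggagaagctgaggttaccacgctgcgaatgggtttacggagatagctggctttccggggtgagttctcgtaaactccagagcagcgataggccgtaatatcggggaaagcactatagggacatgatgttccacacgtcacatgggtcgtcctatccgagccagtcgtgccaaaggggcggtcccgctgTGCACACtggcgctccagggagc
Mt2 (chr8:94172368-94172617): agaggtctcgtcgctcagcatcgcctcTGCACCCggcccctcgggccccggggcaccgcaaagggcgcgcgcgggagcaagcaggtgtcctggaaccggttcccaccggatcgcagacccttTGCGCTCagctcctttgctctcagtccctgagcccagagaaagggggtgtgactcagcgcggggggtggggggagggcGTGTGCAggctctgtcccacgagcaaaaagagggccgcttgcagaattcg
Slc30a1 (chr1:191906531-191906780): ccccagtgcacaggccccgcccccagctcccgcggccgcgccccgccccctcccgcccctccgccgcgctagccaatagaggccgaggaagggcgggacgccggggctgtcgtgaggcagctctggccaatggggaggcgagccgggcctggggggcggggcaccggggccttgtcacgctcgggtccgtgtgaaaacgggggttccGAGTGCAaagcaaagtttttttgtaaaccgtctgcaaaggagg

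The core matched at 1 place before Mt1, at 3 before Mt2 and at 1 before Slc30a1. Among the other genes with a window, it matched at 2 places before Slc30a4 and 1 before Slc30a5, neither of them called in any comparison, and at 0 before Mtf1, Slc39a1 and Slc39a10. Of 32851 mouse promoter windows of this length, 21.4% held at least 1 match and 1.26% at least 3. The windows end 222 bases before the start codon of Mt1 and 230 before that of Mt2. The 229 transcript bases before the start codon of Mt1 held 4 further matches, and the 184 before that of Mt2 held 3. A stretch between the Mt2 window and the annotated transcript was not searched. The counts in the windows are thus not all the matches near these genes. The shares over all promoters cover the windows alone. The letters GNACA and TGTNC with 3 bases between them, a loose form of the glucocorticoid response element, matched once before Mt1 and in 0.387% of all windows, and did not match before Mt2 or Slc30a1. The letters TTCNNNGAA, a STAT site, matched in none of these 3 windows and in 7.02% of all. Windows were found for 8 of the 9 genes, and none for Slc39a14.

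In cachexia Mt1, Mt2 and Slc39a14 rose, and the other 6 genes were not called. Levels are CPM, read counts divided by a TMM-adjusted library total, which compare 1 gene between mice. Mt1 was at 17.8, 18.7, 19.5 and 53.7 CPM in NOR mice and at 189, 170, 251 and 1011 CPM in CAC mice 1 to 4. The groups did not overlap, although CAC 4 stood far above the other CAC mice and NOR 4 far above the other NOR mice, and both were BALB/c. The mean went from 27.4 ± 17.6 to 405 ± 405 CPM (SD, n = 4). This was a 14.8-fold rise, 3.88 ± 0.73 (SE) on the log2 scale, with an adjusted p of 0.0129 (edgeR quasi-likelihood test, Benjamini-Hochberg over all genes tested).

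Mt2 moved the same way from a lower count level. Its CPM was 5.53, 5.44, 7.99 and 20.9 in NOR mice and 153, 149, 182 and 597 in CAC mice 1 to 4. Again no CAC mouse came near a NOR mouse, with NOR 4 and CAC 4 the highest of their groups. The log2 fold change of Mt2 was 4.76 ± 0.70, or 27.0-fold (edgeR adjusted p = 0.00567). This was the 12th largest rise among the 14666 genes tested, and that of Mt1 the 26th.

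Slc39a14, which encodes the importer ZIP14 of zinc and iron, was at 17.3, 16.2, 13.6 and 19.0 CPM in NOR mice and at 53.4, 34.4, 52.0 and 108 CPM in CAC mice. The 2 groups were clear of each other, CAC 4 again the highest. The log2 fold change was 1.91 ± 0.33, or 3.75-fold (edgeR adjusted p = 0.00957), the 190th largest rise. The gene lies on the minus strand at chr14:70303469-70351425.

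These 3 genes passed a call of adjusted p up to 0.05 with a change of at least 1.5-fold, against a background of 9.45% of all genes tested, with 4.32% of all called higher in CAC. Without CAC 4 the 3 calls stood, but the log2 fold changes were 2.89 for Mt1, 4.01 for Mt2 and 1.496 for Slc39a14, and without NOR 4 that of Mt2 was 5.42. Within C57BL/6 mice alone, 2 against 2, Mt1 (3.34) and Mt2 (4.82) were called and Slc39a14 (1.43, edgeR adjusted p = 0.0726) was not. Within BALB/c mice alone the log2 fold changes were 4.09, 4.74 and 2.29, and no gene of the whole table was called. A test of whether the change differed between the 2 models gave no call among the 9 genes, the lowest edgeR adjusted p being 0.998.

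**Figure D1:**
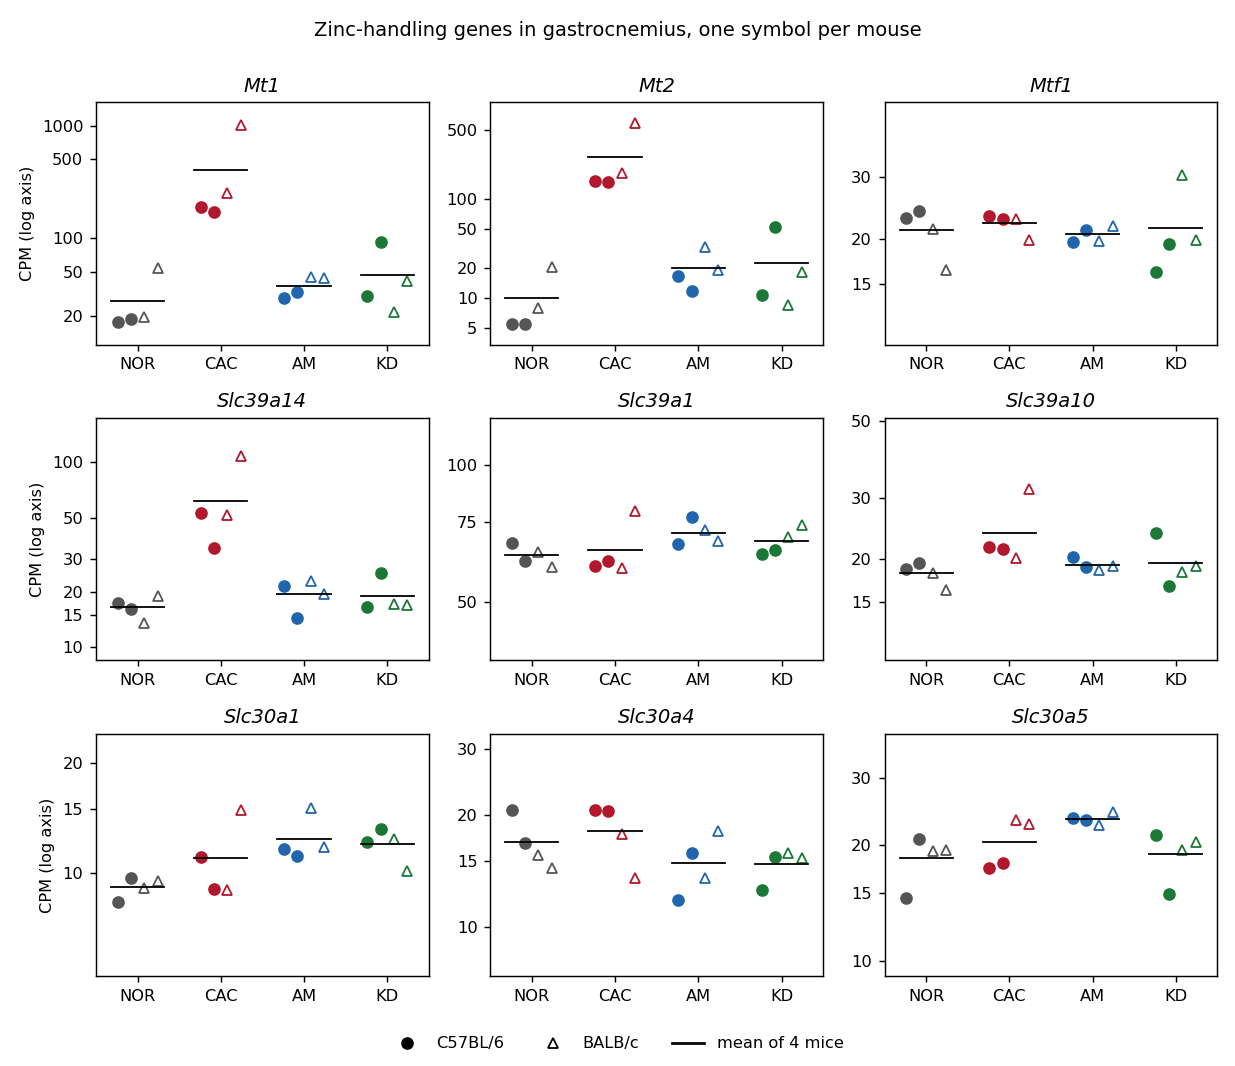
CPM of the 9 genes (log axis) in each mouse, with groups along the horizontal axis, filled circles for C57BL/6 mice, open triangles for BALB/c mice and a line at the mean of 4 mice. For Mt1, Mt2 and Slc39a14 all 4 CAC mice lie above all 12 other mice, and CAC 4 is the highest, while the other 6 genes stay within a narrow band.

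The other 6 genes were not called in cachexia. Mtf1, the zinc sensor itself, lies on the plus strand at chr4:124802104-124849800, with 8.09% of its exon bases opposite those of the gene 1110065P20Rik. It was at 16.4 to 24.1 CPM in NOR mice and 19.9 to 23.3 in CAC mice, a log2 difference of 0.07 with a 95% interval of -0.24 to 0.37. The importer Slc39a1 (ZIP1; plus strand, chr3:90248172-90253612), a transporter of the plasma membrane, was at 59.7 to 67.5 and 59.4 to 79.2 CPM, a log2 difference of 0.04 (-0.21 to 0.29). These intervals leave out changes of the size seen for Slc39a14.

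Slc39a10 (ZIP10; minus strand, chr1:46807544-46892852), also an importer of the plasma membrane, was at 16.2 to 19.4 CPM in NOR mice and at 21.6, 21.4, 20.02 and 31.9 CPM in CAC mice 1 to 4. The groups did not overlap, as for 12.3% of all genes in this direction, and the log2 difference of 0.39 ± 0.16 was not called (edgeR adjusted p = 0.146). With the 3 called genes, 4 of the 9 had all CAC mice above all NOR mice.

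The exporters gave small differences in the same comparison. Slc30a1 (ZnT1; plus strand, chr1:191906767-191913247), which moves zinc out of the cell, was at 8.32 to 9.68 CPM in NOR mice and 8.96 to 14.8 in CAC mice, a log2 difference of 0.26 (-0.15 to 0.67). Of its exon bases, 8.92% lie opposite those of the gene 1700034H15Rik. Slc30a4 (ZnT4; minus strand, chr2:122681233-122702663), a transporter of endosomal vesicles, had a log2 difference of 0.10 (-0.28 to 0.49). For Slc30a5 (ZnT5; minus strand, chr13:100802648-100833427), which supplies zinc to the secretory pathway, it was 0.13 (-0.21 to 0.48). The median log2 difference of the 9 genes was 0.26, beside 0.01 over all genes tested.

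Under amiloride, Mt1, Mt2 and Slc39a14 fell relative to the untreated CAC mice, and the other 6 genes were not called, with log2 differences from -0.30 to 0.21. Mt1 was at 29.1, 32.9, 44.3 and 43.5 CPM in AM mice 1 to 4, all below the lowest CAC mouse. Its log2 fold change was -3.43 ± 0.61, 10.8-fold lower (edgeR adjusted p = 0.0202).

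For Mt2 the AM mice were at 16.7, 11.8, 32.8 and 19.4 CPM. They too lay entirely below the CAC mice. The log2 fold change was -3.74 ± 0.56, 13.4-fold lower (edgeR adjusted p = 0.012), the 4th largest fall among 14674 genes, with Mt1 the 6th.

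Slc39a14 was at 21.5, 14.5, 22.8 and 19.4 CPM in AM mice, again with no overlap with CAC. The log2 fold change was -1.66 ± 0.33, 3.16-fold lower (edgeR adjusted p = 0.0281). Of all genes tested 3.66% were called, 2.03% were called lower in AM, and 9.63% had all AM mice below all CAC mice.

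The calls of Mt1 and Slc39a14 depended on single AM mice, and with the replicate number as a block none of the 3 was called (lowest edgeR adjusted p = 0.0868, for Mt2). Without any 1 of the AM mice, Mt2 remained called while Mt1 had edgeR adjusted p values of 0.06 to 0.0662 and Slc39a14 of 0.0692 to 0.0799, with log2 fold changes no weaker than -3.33 and -1.54. Slc39a14 was also not called without CAC 1 (0.0648) or CAC 3 (0.0516), and without CAC 4 the log2 fold changes were -2.44, -2.997 and -1.25, all still called. With the strains apart, 2 against 2, none of the 3 was called, and the log2 fold changes were -2.53, -3.39 and -1.28 in C57BL/6 and -3.85, -3.91 and -1.93 in BALB/c mice. The change did not test as different between the models for any of the 9 genes (lowest edgeR adjusted p = 0.45, for Slc30a5).

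Knock-down of Rab27 in the tumor cells was compared with the same CAC mice, so all 3 comparisons above and here share them. Mt1 was at 30.1, 92.3, 21.9 and 41.1 CPM in KD mice 1 to 4, Mt2 at 10.7, 52.7, 8.496 and 18.2 CPM, and Slc39a14 at 16.5, 25.2, 17.2 and 17.0 CPM. In each gene all KD mice lay below all CAC mice, as for 3.37% of all genes tested, and KD 2 was the highest of its group. The log2 differences were -3.13 ± 0.73 for Mt1, -3.58 ± 0.75 for Mt2 and -1.71 ± 0.34 for Slc39a14.

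None of the 3 passed the call in KD against CAC, with edgeR adjusted p values of 0.263, 0.231 and 0.231 and unadjusted values of 0.00236, 0.0012 and 0.000866. Only 1 gene of 14593 (0.00685%) was called there, Il6ra, the interleukin-6 receptor subunit, which is named after its value was seen. No gene was called there with RLE size factors, with total counts, with limma-voom, with strain as a covariate, with the replicate block, in either strain alone, or in 7 of the 8 settings that left out 1 mouse, all but the one without CAC 1. All 3 were called with DESeq2 (highest adjusted p 0.000371), where 0.706% of genes were called lower, and in an edgeR fit of all 16 libraries (highest 0.0381), where 0.361% were. Without CAC 4 the log2 differences were -2.12, -2.83 and -1.29, and without KD 2 that of Mt2 was -4.44 (edgeR adjusted p = 0.0633). In the C57BL/6 mice alone they were -1.54, -2.24 and -1.06 and in the BALB/c mice -4.34, -4.88 and -2.25. The lowest edgeR adjusted p of the difference between the models was 0.866, with 0.0437 before adjustment for Mt1.

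**Figure D2:**
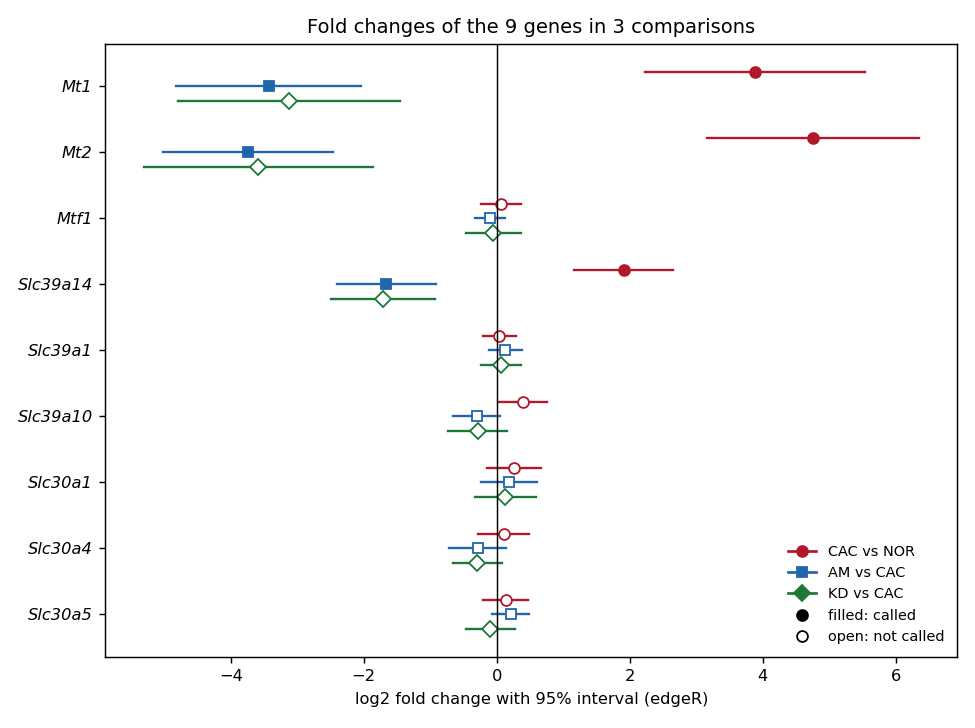
Log2 fold change of the 9 genes with its 95% interval in CAC against NOR, AM against CAC and KD against CAC, which share the CAC mice; filled symbols were called. Mt1, Mt2 and Slc39a14 lie at 3.88, 4.76 and 1.91 in cachexia, at -3.43, -3.74 and -1.66 in AM against CAC and at -3.13, -3.58 and -1.71, uncalled, in KD against CAC, and the values of the remaining genes lie between -0.30 and 0.39.

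Against NOR mice, neither the AM nor the KD mice gave a call among the 9 genes, and over all genes tested 0% were called in either comparison (edgeR; 9.19% and 3.54% had an unadjusted p below 0.05, and DESeq2 called 70 and 31 genes, none of them among the 9). Mt2 was 2.03-fold above NOR in AM mice (log2 1.02, 95% interval -0.10 to 2.13) and 2.25-fold in KD mice (1.17, -0.37 to 2.72). Single mice moved these values, none of them called: without NOR 4 they were 3.22-fold and 3.599-fold, and without KD 2 the latter was 1.255-fold. Mt1 had log2 differences of 0.45 (-0.40 to 1.301) and 0.75 (-0.46 to 1.97). These intervals reach both 0 and levels well above NOR, so a return to the NOR level was not shown. Slc39a14 had 0.25 (-0.12 to 0.63) and 0.21 (-0.20 to 0.61).

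The exporter Slc30a1 was not called either. It was at 11.6, 11.1, 15.03 and 11.8 CPM in AM mice and 12.2, 13.2, 12.4 and 10.1 CPM in KD mice, all above the highest NOR mouse at 9.68 CPM. The log2 differences were 0.45 ± 0.13 in AM (edgeR adjusted p = 0.518, and 0.00761 before adjustment) and 0.39 ± 0.14 in KD (edgeR adjusted p = 0.999, and 0.0194 before). Slc30a5 in AM mice, at 22.6 to 24.4 CPM, also lay above all NOR mice, by 0.35 ± 0.13 on the log2 scale (unadjusted 0.023, adjusted 0.531, edgeR). All AM mice were above all NOR mice for 2.12% of genes tested, and all KD mice for 1.23%. Both comparisons share the NOR mice.

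None of the 9 genes was called between AM and KD mice. No gene of the table was called (0%, edgeR), 1.11% had an unadjusted p below 0.05, and DESeq2 called 1, not among the 9. The interval of the log2 difference, AM minus KD, was -1.24 to 0.63 for Mt1, -1.47 to 1.16 for Mt2 and -0.40 to 0.50 for Slc39a14. The uncalled Mt2 difference itself was -0.16, and 0.68 without KD 2. Slc30a5 was higher in all AM mice than in all KD mice, by 0.31 ± 0.14, as for 0.522% of genes.

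Beyond these genes, the fixed family list held 29 genes: 4 metallothioneins, 14 ZIP importers, 10 ZnT exporters and Mtf1. Of 23 tested in CAC against NOR, 3 were called, where 9.45% of all genes were, and they were Mt1, Mt2 and Slc39a14. That share is not far from 9.45%, and so is no result about the families. The same 3 were the calls among 22 tested in AM against CAC, where 3.66% of all genes were called. In KD against CAC none of 23 was called, where 0.00685% of all genes were, which is no result about the families either. Mt3, a metallothionein best known from brain, lies on chromosome 8 beside Mt2 and was at 0.644 to 2.02 CPM in NOR and 1.73 to 3.93 CPM in CAC mice, with a log2 difference of 1.04 ± 0.38 (edgeR adjusted p = 0.11). Mt4 did not pass the filter.

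Of the 12 ZIP genes tested in cachexia, 8 had negative log2 differences and 4 positive, and their median was -0.11. Their range ran from -0.66 for Slc39a2 to Slc39a14. Slc39a2 was near the floor, with means of 0.49 CPM in NOR and 0.31 in CAC mice, and its 95% interval was -1.87 to 0.56. The 7 ZnT genes tested ran from -0.52 for Slc30a2 to 0.26 for Slc30a1. In AM against CAC, Slc39a9 (ZIP9) had the highest value of the list, 1.42 ± 0.37, and was not called (edgeR adjusted p = 0.0622). It was at 29.7, 31.96, 31.2 and 10.2 CPM in AM mice 1 to 4, against 7.53 to 14.02 in CAC mice, so that AM 4 lay among the CAC mice and the others above them. It was called with DESeq2, with all 16 libraries in 1 fit and without AM 4. Its log2 difference was 1.32 both in AM against NOR (edgeR adjusted p = 0.518) and in AM against KD (edgeR adjusted p = 1). Among 9 tested genes of copper handling, the other metal that metallothioneins bind, 1 was called in cachexia: Commd1, a regulator of copper export, fell by 0.61 on the log2 scale (edgeR adjusted p = 0.0165). That share is close to the 9.45% of all genes called, and so is no result about copper handling. None was called in AM or KD against CAC.

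**Figure D3:**
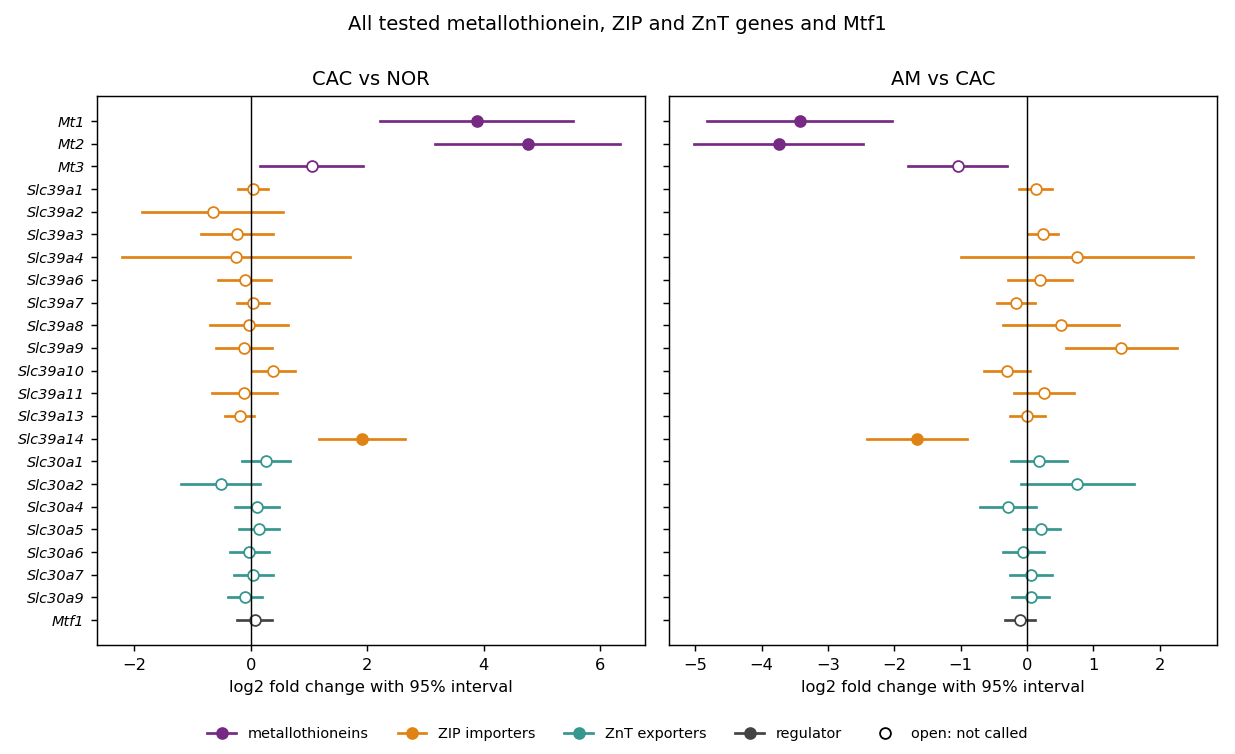
Log2 fold change with its 95% interval of each tested metallothionein, ZIP and ZnT gene and of Mtf1 in CAC against NOR (left) and AM against CAC (right); filled circles were called. Mt1, Mt2 and Slc39a14 are the filled genes in both panels, and Slc39a9 reaches 1.42 in AM against CAC without a call.

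Within 150 kb of the Mt1 start, a distance set after the values were seen, 4 genes other than the metallothioneins were tested in CAC against NOR. None was called, which at 9.45% of all genes called is no result about so few genes. Their log2 differences ran from 0.022 for Ogfod1 to 0.37 for Nup93, and the lowest edgeR adjusted p was 0.104, for Nup93, whose start lies 35.5 kb away. The start of Mt2 lies 6418 bases from that of Mt1.

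**Figure D4:**
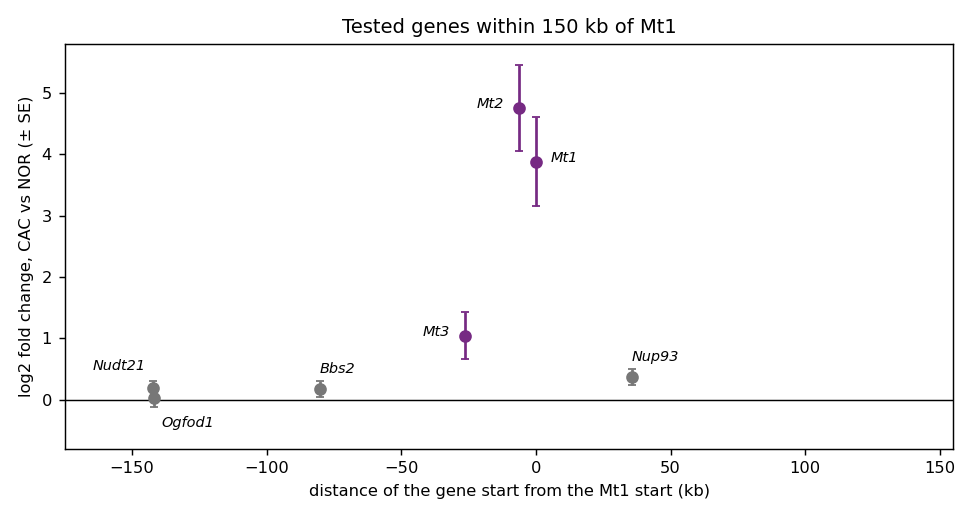
Log2 fold change (± SE) in CAC against NOR of the tested genes within 150 kb of Mt1, by the distance of their starts from the Mt1 start in kb. Mt1 (3.88) and Mt2 (4.76) stand above all neighbours, Mt3 is at 1.04 and the others lie between 0.022 and 0.37.

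The ratio of Mt1 to Mt2 counts within a library does not depend on scaling. Mt1 had 3.22, 3.44, 2.44 and 2.58 reads per Mt2 read in NOR mice and 1.24, 1.15, 1.37 and 1.69 in CAC mice. The ratio was lower in all CAC mice than in all NOR mice, a log2 difference of -1.10 (two-sided exact permutation test, p = 0.0286, adjusted 0.0429 over 3 comparisons), and 0.0286 is the smallest p that 4 against 4 allows. In KD mice the ratio was 2.82, 1.75, 2.58 and 2.26, above all CAC mice (log2 difference 0.78, exact permutation p = 0.0286, adjusted 0.0429). With 1 mouse left out the log2 difference was 0.68 to 0.91, while the exact permutation p was 0.0571 in 6 of the 8 settings, all but those without KD 2 or KD 4. In AM mice it ran from 1.35 to 2.79 and overlapped CAC (0.54, exact permutation p = 0.0857, adjusted 0.0857). The part of antisense reads in the Mt2 counts was not tested.

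**Figure D5:**
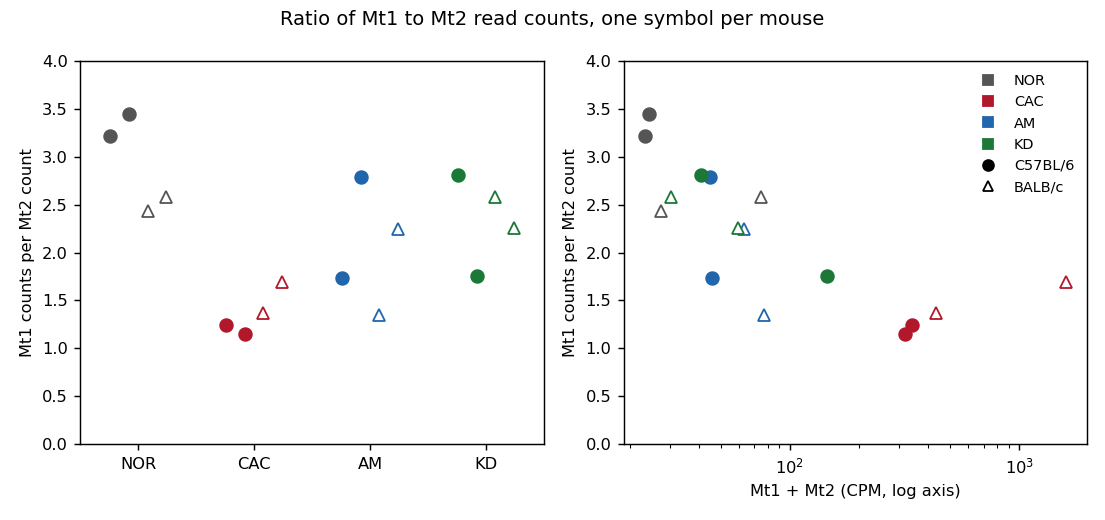
Mt1 counts per Mt2 count in each mouse, by group (left) and against the summed CPM of both genes (right, log axis), with filled circles for C57BL/6 and open triangles for BALB/c mice. All 4 CAC mice lie between 1.15 and 1.69 and all 4 NOR mice between 2.44 and 3.44.

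To compare different genes with each other, levels were taken per length, as the authors' FPKM. In NOR mice Mt1 came first at 35.9 ± 24.8 FPKM, followed by Slc39a1 at 25.9 ± 1.31, Mt2 at 21.96 ± 17.3 and Slc39a14 at 11.0 ± 1.82, and neighbours in this order overlapped between mice. Slc39a10, Slc30a5, Mtf1, Slc30a4 and Slc30a1 followed, from 8.03 down to 3.01 FPKM, with gaps between mice below Slc39a14, below Mtf1 and below Slc30a4.

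In CAC mice Mt2 (639 ± 521 FPKM) and Mt1 (572 ± 573) led, overlapping each other and clear of Slc39a14 (45.2 ± 23.9), which now came before Slc39a1 (29.0 ± 5.06) and overlapped it. Mt1 and Mt2 were then higher than 99.3% and 99.4% of 18204 genes ranked by FPKM, against 89.2% and 82.8% in NOR mice. In AM and KD mice the order of the means was Mt1, Mt2, Slc39a1 and Slc39a14, where Mt1, Mt2 and Slc39a1 overlapped from one to the next and Slc39a14 lay below Slc39a1 in all mice. The transporters other than Slc39a14 kept FPKM means between 3.01 and 30.4 in all groups.

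Over the 16 mice, the gene most like Mt1 was Mt2 (Pearson r = 0.984 of log2 CPM, among 13207 genes), followed by Slc39a14 (0.957), Eif4ebp1 (0.947), Sec63 (0.934) and Serinc3 (0.932). For Mt2 the order was Mt1, Eif4ebp1 (0.949), Slc39a14 (0.947), Agfg2 (0.943) and Serinc3 (0.941). For Slc39a14 it was Mt1, Mt2, Sesn1 (0.946), Mtmr2 (0.934) and Psma7 (0.922). These values are descriptions over mice that share group differences. After the group means were subtracted, Mt2 remained closest to Mt1 (0.94), with Rras next (0.909), while for Slc39a14 the closest was Kiz (0.868).

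Muscle and other cells were checked by marker genes, since in bulk RNA fewer cells of a type and less RNA per cell cannot be told apart. The 8 markers of skeletal muscle fibres, which the label gives as the tissue, summed to 140200 to 213800 CPM in NOR, 73220 to 157900 in CAC, 134200 to 166300 in AM and 112300 to 195800 in KD mice, with CAC 3 the lowest. None of the 8 was called in CAC against NOR or in AM or KD against CAC, where their median log2 differences were -0.44, 0.34 and 0.41. Of 6 neutrophil markers 4 rose in CAC against NOR, and the sum of the 6 was 5.97 to 24.2 CPM in NOR, 89.3 to 215 in CAC, 11.1 to 122 in AM and 13.1 to 213 in KD mice, with Ly6g at 0 in NOR 2 and AM 4 and Mmp8 at 0 in NOR 1. In AM and KD against CAC, 0 of the 6 were called lower, with median log2 differences of -1.07 and -0.25. Of all genes tested, 9.45% were called in CAC against NOR, 3.66% in AM against CAC and 0.00685% in KD against CAC. Calls of 0 among so few markers of any cell type are thus no result about those cells. The 4 erythroid markers all rose in CAC, from sums of 779 to 1026 CPM in NOR to 2765 to 6681, and none was called in AM or KD against CAC. Their sums were 710.5 to 12140 CPM in AM and 1680 to 16430 in KD mice, highest in AM 2 and KD 2. Of 4 fibroblast markers, 2 fell in CAC and 2 rose in AM against CAC, and 2 of 4 endothelial markers rose in CAC. None of the macrophage, adipocyte, B cell, T cell or slow-fibre markers was called in these 3 comparisons. Several of their sums differed widely between mice of a group. Macrophage sums were 347, 75.9, 45.5 and 351 CPM in KD mice 1 to 4. B cell sums ran from 2.57 to 165 CPM in NOR, 0.657 to 232 in CAC and 0.283 to 183 in KD mice, with CAC 4 at 1.12. T cell sums were 0 in KD 2 and KD 3 and 27.0 CPM in KD 1. AM 1 held 1504 CPM of 4 liver markers, against at most 19.4 in any other library. The part of these cells in the Mt1, Mt2 and Slc39a14 values was not tested. Without AM 1, the log2 fold changes in AM against CAC were -3.33 for Mt1, -3.66 for Mt2 and -1.71 for Slc39a14, of which Mt2 was called (edgeR adjusted p = 0.0626, 0.0442 and 0.0702).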

How the data were processed

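Total RNA of 16 gastrocnemius muscles was enriched with oligo(dT) and sequenced on a HiSeq2500. Per the labels, the submitters' processing notes name fastp, Bowtie2, HISAT2, StringTie 1.3.1 and the builds mm9 and GRCm38, without their roles, and whether counting used strand is not given in the sources used here. The authors deposited a table of 21923 genes with raw read counts and FPKM for each mouse. Libraries held 35913190 to 61032708 counts. Each mouse was 1 sample.

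Counts were tested with edgeR 4.0.16 (R 4.3.3; TMM, filterByExpr with a minimum count of 10 and total of 15, quasi-likelihood F test) in the 8 libraries of each pair of groups, with Benjamini-Hochberg adjustment over all genes tested. NOISeq, used by the authors, was not used here. A call needed an adjusted p of at most 0.05 and a change of at least 1.5-fold, the study's limits. SE is the log2 fold change divided by the square root of F. On simulated counts with 200 genes changed 4-fold, 82% were called in CAC against NOR, 80.7% in AM against CAC and 68.4% in KD against CAC (14456, 14492 and 14356 genes). DESeq2 1.42.0 and limma 3.58.1 served as alternatives, limma on log2(FPKM + 1). Positions and transcripts are from GENCODE M21, which held 21905 of the gene IDs, and were not matched to the authors' annotation. Log2 CPM used a prior count of 2.

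The 9 genes and all lists were chosen with earlier results of these data known, and Slc39a14 stands in a gene table the study drew from these samples, so its presence here is not independent evidence. All 9 genes are named whatever their values. From the wider families those called are named, and others as ends of a range. Like genes are the 5 of highest r among genes averaging at least 1 CPM.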

Additional observations from a re-analysis of the deposited data

Results flagged for a closer look

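In 9 of the 36 groups of 4 mice formed by the 9 genes and the 4 conditions, 1 mouse stood far from the other 3 (Dixon's gap test at the 95% level, which marks about 1 group in 20 by chance). Of the 9, 5 were CAC 4, a BALB/c mouse: 1011 CPM for Mt1 with the next CAC mouse at 251, 597 CPM for Mt2 with the next at 182, 79.2 CPM for Slc39a1 with the next at 61.5, 31.9 CPM for Slc39a10 with the next at 21.6, and, on the low side, 19.9 CPM for Mtf1 with the next at 22.8. In NOR 4, also BALB/c, Mt1 was at 53.7 CPM beside 19.5 and Mt2 at 20.9 beside 7.99. In the KD group, Slc39a14 was at 25.2 CPM in KD 2 beside 17.2, and Slc30a4 at 12.6 CPM in KD 1 beside 15.3. What sets these mice apart was not tested.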

How the results depend on the processing

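Mt1, Mt2 and Slc39a14 kept their direction in all 3 comparisons under every alternative run. In CAC against NOR the same 3 of the 9 genes were called under 18 of 20 alternatives, Mt1 and Mt2 in C57BL/6 mice alone, and 0 of the 9 genes or of the family list in BALB/c mice alone, where each group has 2 mice. In AM against CAC the count of the 9 genes and of the family list was 0 with the replicate number as a block, in C57BL/6 mice alone and in BALB/c mice alone, and ran from 1 to 3 when 1 mouse was left out. With DESeq2 the family list had 5 calls there, Mt3 and Slc39a9 added, and Slc39a9 was also called with all 16 libraries in 1 fit and without AM 4. In KD against CAC the count of both was 3 with DESeq2 and with all 16 libraries in 1 fit, and 0 in the other alternatives. The log2 difference of the Mt1 to Mt2 ratio in KD against CAC was 0.68 to 0.91 with 1 mouse left out (exact permutation p 0.0286 to 0.0571, and 0.0571 in 6 of 8). None of the 9 genes was called in AM or KD against NOR or in AM against KD under any alternative.

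The replicate numbers follow strain, and the labels give them no other meaning. Same-numbered mice deviated from their group means with r of -0.189 to 0.601 in CAC and NOR, -0.453 to 0.0454 in AM and CAC, -0.636 to -0.25 in KD and CAC, -0.403 to -0.101 in AM and NOR, -0.583 to 0.421 in KD and NOR, and 0.0866 to 0.526 in AM and KD, where 2 of 4 mice correlated best with their own number. With the replicate block, the calls over all genes went from 1386 to 1140, from 537 to 0 and from 1 to 0, and the log2 fold changes in AM against CAC were -2.998 for Mt1, -3.55 for Mt2 and -1.55 for Slc39a14. Over all genes, other counts in CAC against NOR included 1921 (DESeq2), 247 (C57BL/6) and 0 (BALB/c). In AM against CAC they included 1119 (DESeq2), 339 (strain as a covariate), 231 (all 16 libraries) and 0 (either strain). In KD against CAC they included 340 (DESeq2) and 145 (all 16 libraries). With 1 mouse left out, the counts ran from 728 to 1272 in CAC against NOR and from 212 to 447 in AM against CAC. The shares of all genes called moved with these counts. Under total counts the median log2 fold change of all genes was 0.14 in CAC against NOR, with 959 genes called higher and 619 lower in place of 633 and 753, and -0.11 in KD against CAC.

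Small uncalled values changed sign. Slc39a1 in CAC against NOR was -0.046 in C57BL/6 mice, and in KD against CAC it was -0.048 with total counts and -0.044 with limma on FPKM. Slc30a4 in AM against CAC was 0.0038 in BALB/c mice. In KD against CAC, Slc30a5 was 0.053 in C57BL/6 mice, and Mtf1 was 0.23 and Slc30a1 -0.10 in BALB/c mice. With 1 mouse left out, CAC against NOR ran from -0.040 to 0.13 for Mtf1 and -0.071 to 0.095 for Slc39a1, and KD against CAC from -0.25 to 0.051 for Mtf1 and -0.17 to 0.0052 for Slc30a5. The cause of these changes was not tested. The lowest count of the 9 genes in any library was 204, and depth was not varied.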
